A study of Homo sapiens with 6 samples.

Results

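NRF2, the transcription factor encoded by NFE2L2, was followed in MDA-MB-231 breast cancer cells together with KEAP1, its negative regulator, and 7 well-known NRF2 targets (SLC7A11, GCLC, GCLM, TXN, TXNRD1, SRXN1 and HMOX1). These 9 genes were taken by name from the 58735 genes of the count table, and all 9 had enough counts to be tested, among 15242 tested genes. Whole-cell RNA was compared between parent MDA-MB-231 cells (3 libraries) and Adriamycin-resistant cells derived from them, called ADRr (3 libraries). MDA-MB-231 is an established triple-negative breast cancer line, and Adriamycin (ADR, doxorubicin) is an anthracycline that damages DNA and undergoes redox cycling. According to the study's methods, ADRr cells were selected by stepwise exposure to rising ADR concentrations, and survivors were expanded in medium with high ADR doses. They were cloned from single cells by limiting dilution, so a property of the clone and a property of resistance cannot be told apart. Both groups carry the same cell line label and were grown in DMEM with serum and antibiotics. The sources used here do not say whether ADR was present at harvest. The series text speaks of 3 time points that no sample label names, and nothing states that the libraries of a group came from separate cultures, so the p-values measure the spread between these libraries, which may be technical.

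Total counts were 15983985 to 18272314 per library, and no library stood apart in depth. A count of 0 at this depth allows up to 3 counts, which covers counting error only. Of the markers used to check the label, VIM, CD44, KRT8 and KRT18 were present in every library, and ESR1 and PGR had at most 1 count. CDH1, which was expected at or near 0 in this line, was not. It had 252 ± 26.7 normalized counts in parent and 121 ± 19.2 in ADRr cells (SD, n = 3). Of the leukocyte and endothelial markers, 6 (PTPRC, CD53, LYZ, TYROBP, CD3E and CDH5) had at most 4 counts per library, and PECAM1 had 4 to 13.

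NRF2 is the main activator of the cell's defence against electrophiles and oxidants. In unstressed cells KEAP1 holds it in a CUL3 ubiquitin ligase and has it degraded, and modification of cysteines in KEAP1 lets NRF2 accumulate, pair with a small MAF protein and bind antioxidant response elements. NRF2 is therefore controlled largely at the protein level, which RNA counts do not measure. The targets followed here import cystine (SLC7A11), make glutathione (GCLC and GCLM), reduce protein disulfides (TXN and TXNRD1), repair over-oxidized peroxiredoxins (SRXN1) and break down heme (HMOX1).

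Letters that match the core of the antioxidant response element are shown for genes whose start regions held them, and binding was not measured. The core, TGACNNNGC on either strand (GCNNNGTCA on the other), was searched in the 250 bases before each RefSeq start site. It stood in 10.9% of all 35116 windows. Start sites of 7 of the 9 genes were in the table (HMOX1 and SLC7A11 were not matched). Of these 7, 3 held the core in at least 1 window, namely KEAP1, GCLM and TXNRD1. By window, the unit of the 10.9%, 4 of the 10 windows of these genes held it. A match describes letters only, and no match says nothing about more distant elements. Capitals mark the core in the lines that follow, and each line runs 5′ to 3′ on the gene's strand in build GRCh38.p14. GCLM (chr1:93909431-93909580, minus strand) and the upstream start of TXNRD1 (chr12:104215629-104215778, plus strand) are shown with 150 bases. The downstream TXNRD1 start (chr12:104286920-104286948, plus strand) and KEAP1 (chr19:10502784-10502812, minus strand) are shown with 29 bases, because GENCODE places exons of other transcripts there. SLC3A2 (chr11:62881549-62881698, plus strand), the partner chain of SLC7A11, is added because 1 of its 3 start windows held the core, in the form TGACTCAGC.
GCLM: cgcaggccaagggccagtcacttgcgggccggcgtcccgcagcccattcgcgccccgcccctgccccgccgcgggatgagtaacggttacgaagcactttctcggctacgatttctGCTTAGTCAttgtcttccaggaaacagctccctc
TXNRD1 upstream: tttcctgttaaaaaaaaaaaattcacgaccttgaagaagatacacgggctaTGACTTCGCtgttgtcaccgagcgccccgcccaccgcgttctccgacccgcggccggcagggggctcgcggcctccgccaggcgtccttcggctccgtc
TXNRD1 downstream: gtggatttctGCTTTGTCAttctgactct
KEAP1: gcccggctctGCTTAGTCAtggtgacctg
SLC3A2: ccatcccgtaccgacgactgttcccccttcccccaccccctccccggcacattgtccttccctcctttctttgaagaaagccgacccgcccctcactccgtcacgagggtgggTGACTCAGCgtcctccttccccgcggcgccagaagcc

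The core began 34 bases before the GCLM start, 99 and 102 bases before the TXNRD1 starts and 37 bases before the SLC3A2 start shown. KEAP1 held the core at 54 and 31 bases before its downstream start, and the nearer one has the same 9 letters as that of GCLM.

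To ask whether the NRF2 module differed between resistant and parent cells, counts were normalized for library size and composition (TMM) and compared with edgeR's quasi-likelihood test, adjusted over all tested genes. A gene was called higher or lower where its adjusted p was no more than 0.05 and it differed by 1.2-fold or more, which is how the thresholds in the study's methods were read. In ADRr cells, 6 of the 9 genes were called higher and 0 lower. Those called were SLC7A11, HMOX1, TXNRD1, NFE2L2, TXN and GCLM. KEAP1, GCLC and SRXN1 were not called. Of all tested genes, 29.2% were called higher and 29.6% lower. Every ADRr library lay above every parent library for the same 6 genes and below for 0, against 34.5% and 34.7% of all tested genes. At a log2 fold change of at least 1.2 only SLC7A11 of the 9 was called, where 7.31% of all tested genes were higher and 6.38% lower. The median log2 fold change of the 9 genes was 0.33, beside -0.01 for all tested genes. RNA from a whole culture does not tell a change in every cell from a change in the share of cells that express a gene.

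**Figure D1:**
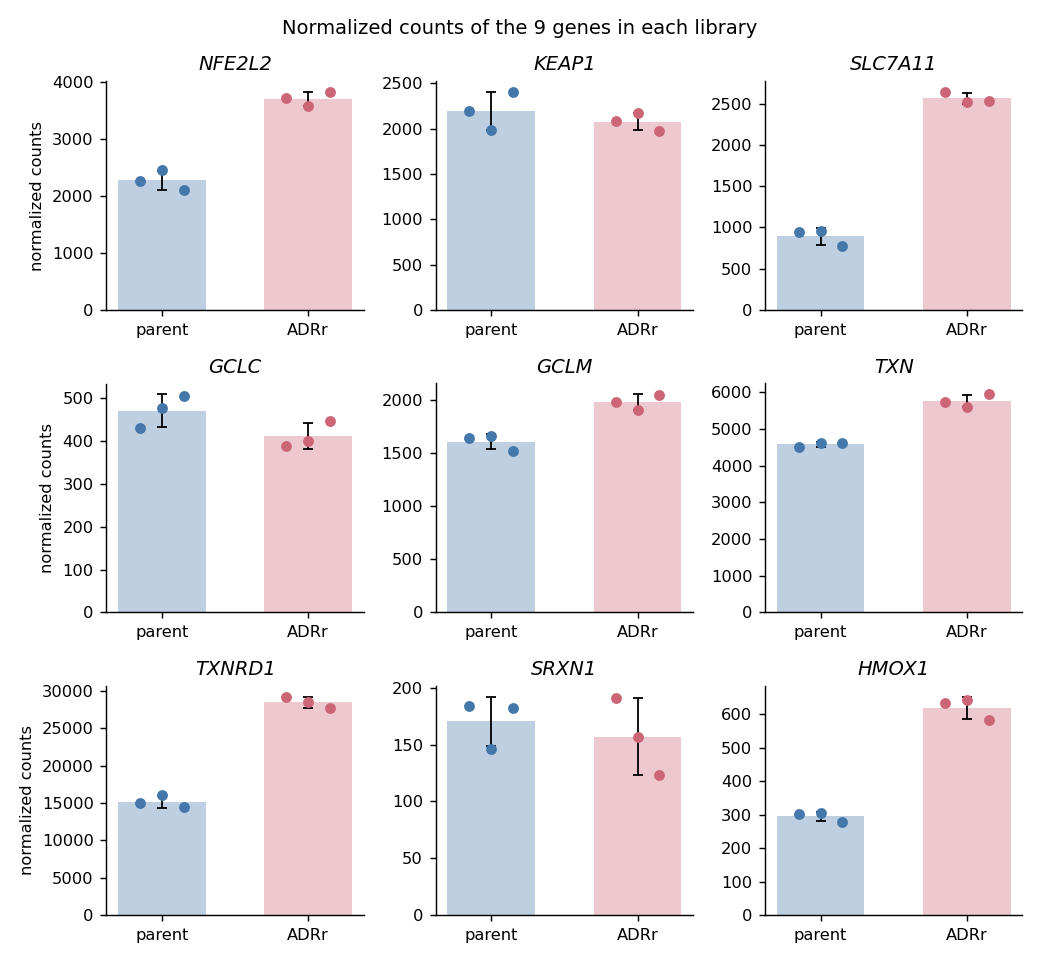
Normalized counts (vertical axes, linear and starting at 0, with a separate scale for each gene) of the 9 genes in parent and ADRr cells. Points are single libraries, bars the means and whiskers the SD of 3 libraries, and the points of the groups overlap only for KEAP1, GCLC and SRXN1.

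NFE2L2 (ENSG00000116044, chromosome 2, 177227595 to 177392697, GRCh38), the gene of NRF2 itself, had 2259, 2448 and 2113 normalized counts in the parent libraries and 3723, 3576 and 3816 in the ADRr libraries. The lowest ADRr library was well above the highest parent library. Its mean rose from 2273 ± 168 to 3705 ± 121 (SD, n = 3 each), 1.63-fold, or 0.71 on the log2 scale (standard error, SE, 0.058, adjusted p = 3.1e-10). The annotated span of NFE2L2 overlaps 11 other genes, and the strand setting of the counting is not given in the sources used here. Only AGPS among them, a peroxisomal enzyme of ether lipid synthesis, had more than 109 counts in any library, and its log2 fold change was 0.21.

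KEAP1 (ENSG00000079999, chromosome 19, 10486120 to 10503741) had 2191, 1982 and 2405 normalized counts in the parent libraries. In the ADRr libraries it had 2087, 2167 and 1976, inside the spread of the parent values apart from the lowest. The difference on the log2 scale was -0.08 (SE 0.065, adjusted p = 0.29), and its 95% interval in fold terms, 0.862 to 1.04, leaves out changes as large as that of NFE2L2. The adjusted p was 0.018 without parent replicate 2, at a log2 fold change of -0.15, still under the fold threshold.

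Of the 3 genes among the 9 that serve cystine uptake and glutathione synthesis, SLC7A11 had the largest fold change. SLC7A11 (ENSG00000151012, chromosome 4, 138164097 to 138242349) encodes xCT, the light chain that exchanges intracellular glutamate for extracellular cystine. It had 949, 958 and 775 normalized counts in the parent libraries and 2641, 2516 and 2533 in the ADRr libraries. The ADRr libraries were tightly grouped and far above the parent ones, of which replicate 3 was lowest. The rise from 894 ± 103 to 2563 ± 67.7 was 2.87-fold, or 1.52 on the log2 scale (SE 0.070, adjusted p = 1.4e-14). Of all tested genes, 4.63% had a larger log2 fold change. The overlapping antisense gene SLC7A11-AS1 had at most 19 counts in a library.

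Glutamate-cysteine ligase, the first and rate-limiting enzyme of glutathione synthesis, is a dimer of a catalytic subunit (GCLC) and a modifier subunit (GCLM). GCLM was called higher and GCLC was not called. GCLC (ENSG00000001084, chromosome 6, 53497341 to 53616970) had 429, 477 and 505 normalized counts in the parent libraries and 387, 400 and 446 in the ADRr libraries. The groups overlapped, since the highest ADRr library exceeded the lowest parent library. On the log2 scale GCLC differed by -0.19 (SE 0.092, 95% interval -0.38 to -0.00, adjusted p = 0.069), and it was not called under any setting tried. GCLM (ENSG00000023909, chromosome 1, 93885205 to 93909456) had 1643, 1664 and 1526 normalized counts in the parent libraries and 1987, 1906 and 2053 in the ADRr libraries. The groups did not overlap, but the step between them was small. The rise was 1.23-fold, or 0.30 on the log2 scale (SE 0.059, adjusted p = 1.1e-04), just past the fold threshold of 0.26 on this scale. Without parent replicate 3 it was 0.26 and fell short of that threshold.

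Of the thioredoxin pair, both genes rose, the reductase with the larger fold change. TXNRD1 (ENSG00000198431, chromosome 12, 104215779 to 104350305), the cytosolic selenoprotein that reduces thioredoxin with NADPH, had 14961, 16053 and 14501 normalized counts in the parent libraries and 29157, 28542 and 27736 in the ADRr libraries. It was the most heavily counted of the 9 genes in every library. The change was 1.88-fold, or 0.91 on the log2 scale (SE 0.046, adjusted p = 7.8e-14). Within the TXNRD1 span lie 3 genes, of which the pseudogene RPL18AP3 had the most counts, at most 854 in a library. TXN (ENSG00000136810, chromosome 9, 110243811 to 110256640), the small disulfide reductase, had 4505, 4616 and 4604 normalized counts in the parent libraries and 5723, 5600 and 5939 in the ADRr libraries. All 3 ADRr libraries were above all parent libraries. The change was 1.26-fold, or 0.33 on the log2 scale (SE 0.048, adjusted p = 2.4e-06). The 7 annotated TXN pseudogenes had at most 5 counts each in any library.

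SRXN1 (ENSG00000271303, chromosome 20, 646615 to 653370), sulfiredoxin, had the fewest normalized counts of the 9 genes. It had 184, 146 and 182 in the parent libraries and 191, 157 and 123 in the ADRr libraries. The ADRr values spanned those of the parent libraries. On the log2 scale the difference was -0.12 (SE 0.15, adjusted p = 0.49), with a 95% interval of 0.738 to 1.14 in fold terms. Without ADRr replicate 3 it was 0.028, so no direction can be read.

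HMOX1 (ENSG00000100292, chromosome 22, 35380361 to 35394214), the inducible heme oxygenase that releases iron, carbon monoxide and biliverdin from heme, had 302, 305 and 279 normalized counts in the parent libraries and 634, 644 and 583 in the ADRr libraries. The groups were far apart compared with the spread inside either. The rise from 295 ± 14.4 to 620 ± 32.7 was 2.10-fold, or 1.07 on the log2 scale (SE 0.088, adjusted p = 3.0e-10). No annotated gene overlaps HMOX1.

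**Figure D2:**
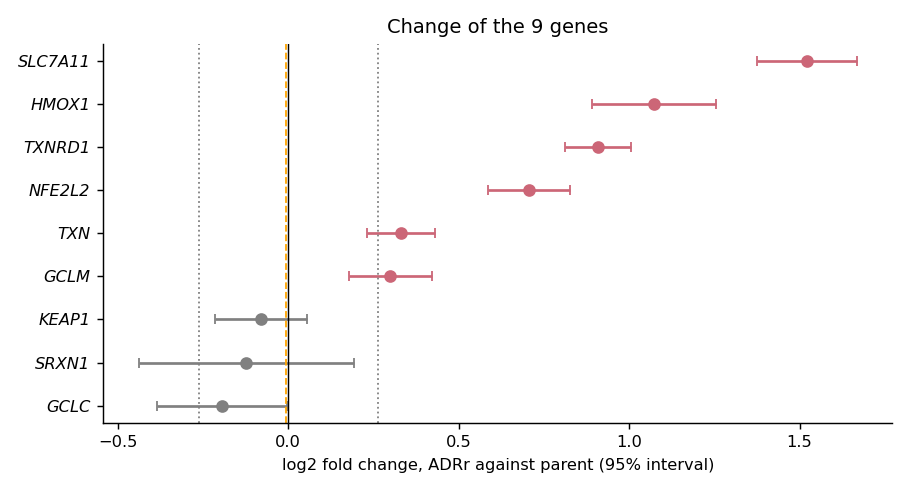
Log2 fold change (horizontal axis, ADRr against parent) of each of the 9 genes with its 95% interval from the edgeR fit. Coloured points were called higher and grey ones were not called, dotted lines mark the fold threshold of 0.26 in either direction, and the dashed line marks the median of all tested genes, -0.01.

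Counts depend on gene length, so levels were compared between genes as FPKM, the authors' counts divided by gene length and library size. In parent cells the order was TXN (229 ± 2.43 FPKM, SD, n = 3), TXNRD1 (129 ± 6.83), KEAP1 (33.3 ± 3.18), NFE2L2 (21.7 ± 1.62), GCLM (17.0 ± 0.816), HMOX1 (7.01 ± 0.356), SLC7A11 (5.30 ± 0.621), SRXN1 (3.62 ± 0.458) and GCLC (3.11 ± 0.243). Each gene was separated from the next in every library, except that SRXN1 and GCLC overlapped. TXN and TXNRD1 held 79.7% of the summed FPKM of the 9 genes in parent cells and 81.1% in ADRr cells.

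In ADRr cells NFE2L2 (35.5 ± 1.26 FPKM) stood above KEAP1 (31.7 ± 1.38), the reverse of their order in parent cells. The FPKM of the 2 genes did not overlap between libraries in either group. This order rests on the gene lengths used for FPKM, since the normalized counts of the 2 genes overlapped in parent libraries. SLC7A11 reached 15.2 ± 0.415 FPKM and HMOX1 14.8 ± 0.742, and these neighbours overlapped, as did SRXN1 (3.34 ± 0.720) and GCLC (2.73 ± 0.212). The highest mean exceeded the lowest by 73.7 times in parent cells and 106 times in ADRr cells.

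**Figure D3:**
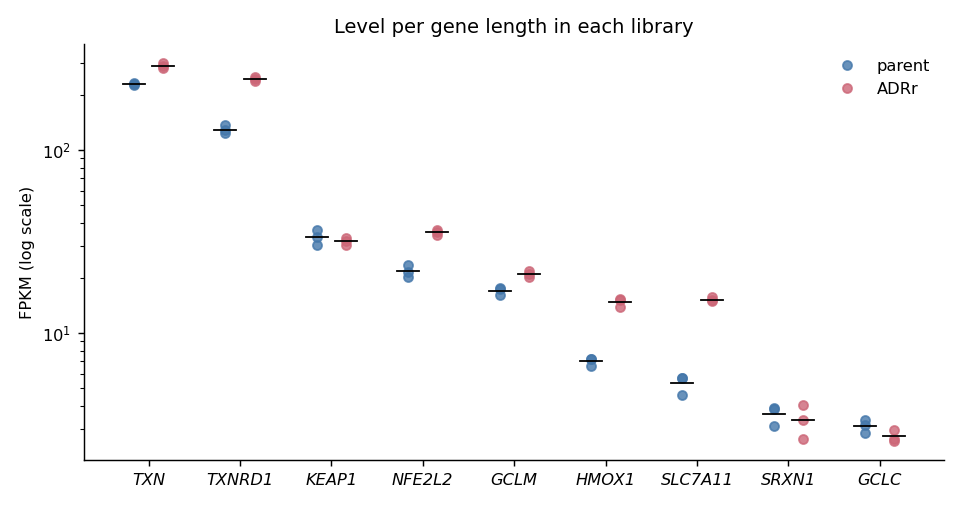
FPKM (vertical axis, log scale) of the 9 genes in each library, ordered by the parent mean. Points are libraries and short lines the means of 3, and NFE2L2 lies below KEAP1 in parent cells (21.7 against 33.3) but above it in ADRr cells (35.5 against 31.7). The order between genes depends on the gene lengths used for FPKM.

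Ratios of FPKM, 4 in all, between genes whose products work together were compared by an exact permutation test over the 6 libraries (two-sided), which cannot give a p below 0.1 with 3 against 3. All 4 ratios separated the groups and reached that smallest p, and adjusted over the 4 they stayed at 0.1, so none can pass 0.05 in this design. The ratio of GCLC to GCLM was 0.164, 0.180 and 0.207 in parent libraries and 0.122, 0.132 and 0.136 in ADRr libraries, 1.41-fold lower in ADRr cells. The ratio of TXN to TXNRD1 was 1.77, 1.69 and 1.86 in parent libraries and 1.15, 1.15 and 1.26 in ADRr libraries, 1.49-fold lower. In these libraries the RNA proportions of catalytic to modifier subunit, and of thioredoxin to its reductase, differed between the 2 groups. The permutation test cannot place these differences under 0.05.

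The ratio of SLC7A11 to SLC3A2, the heavy chain that brings xCT to the cell surface, was 0.0831, 0.0916 and 0.0637 in parent libraries. In ADRr libraries it was 0.124, 0.113 and 0.122, 1.53-fold higher. SLC3A2 also serves other transporters, and its RNA was more abundant per length than that of SLC7A11 in every library. The ratio of NFE2L2 to KEAP1 was 0.649, 0.777 and 0.553 in parent libraries and 1.12, 1.04 and 1.21 in ADRr libraries, 1.72-fold higher.

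**Figure D4:**
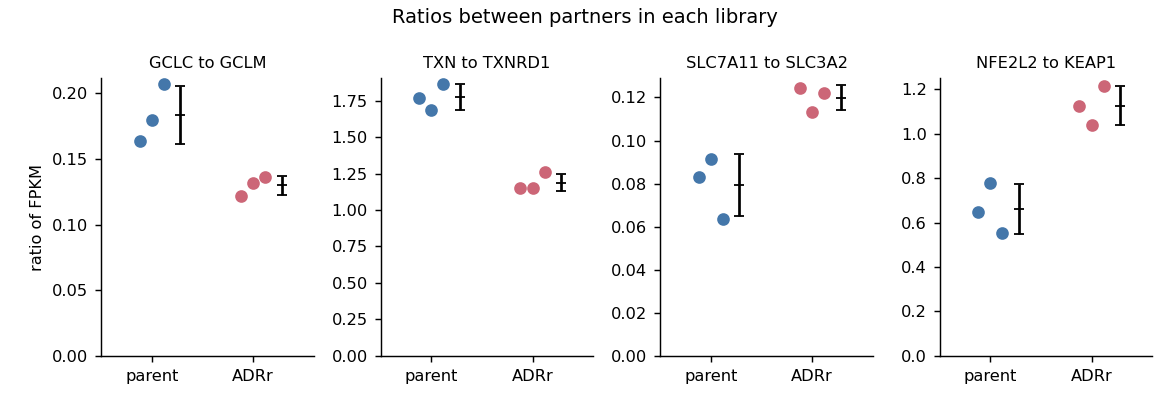
Ratio of FPKM (vertical axes, linear from 0) for 4 pairs of genes in each library. Points are libraries and the marks beside them the mean and SD of 3, and in each pair the ADRr libraries lie all below (GCLC to GCLM, TXN to TXNRD1) or all above (SLC7A11 to SLC3A2, NFE2L2 to KEAP1) the parent libraries.

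The surrounding genes were then described in 6 lists that hold none of the 9 genes, with changes given on the log2 scale. Of 26 tested regulators and partners of NRF2 (27 listed), 10 were called higher and 5 lower, with a median log2 fold change of 0.19. These shares, 38.5% and 19.2%, stand beside 29.2% and 29.6% of all tested genes. MAFF, a small MAF protein that pairs with NRF2 on DNA, rose from 1041 ± 32.9 to 5412 ± 118 normalized counts, or by 2.38 on the log2 scale (adjusted p = 7.1e-20). SQSTM1 (p62), which sequesters KEAP1 for autophagy and is itself an NRF2 target, rose by 1.49 on the log2 scale from 5969 ± 330 to 16750 ± 613 (adjusted p = 5.2e-17). BACH1, the heme-sensing repressor that competes with NRF2 at sites such as those of HMOX1, rose by 1.21 on the log2 scale from 877 ± 80.7 to 2021 ± 13.9 (adjusted p = 2.8e-13).

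On the side of NRF2 degradation and coactivation, CUL3, the scaffold of the KEAP1 ligase, fell by 0.56 on the log2 scale from 1010 ± 123 to 687 ± 39.3 normalized counts (adjusted p = 3.2e-06). RBX1, the RING subunit of that ligase, was not called, at a log2 fold change of -0.11. PGAM5, a mitochondrial phosphatase that binds KEAP1, fell by 0.98 on the log2 scale and SMARCA4 (BRG1), a chromatin remodeller recruited at HMOX1, by 0.69. The list thus held both a partner of NRF2 (MAFF) and a repressor of its targets (BACH1) among the genes that rose.

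Glutathione genes outside the 9 numbered 23 tested of 25, with 12 called higher, 6 lower and a median log2 fold change of 0.27. That is 52.2% higher and 26.1% lower, against 29.2% and 29.6% of all tested genes, so the share of lower calls was near that of all genes. CTH, which makes cysteine from cystathionine, rose from 259 ± 14.1 to 1518 ± 59.6 normalized counts, or by 2.55 on the log2 scale (adjusted p = 6.4e-18). CHAC1, which degrades glutathione, rose by 1.94 (adjusted p = 6.1e-14) and the glutaredoxin GLRX3 by 1.32 (adjusted p = 5.7e-15). SLC3A2 rose by 0.91 from 6093 ± 459 to 11486 ± 391. The transporter's partner chain thus rose together with SLC7A11, with a smaller fold change.

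Tested members of the glutathione peroxidase family were lower or not called. GPX1, the main cytosolic glutathione peroxidase, fell by 0.90 on the log2 scale from 8262 ± 1211 to 4442 ± 178 normalized counts (adjusted p = 2.0e-10), GPX7 by 1.11 and GPX8 by 1.35. GPX4, which reduces lipid peroxides, was not called (-0.08). GSR, the reductase that regenerates glutathione and is counted among NRF2 targets, had a log2 fold change of -0.20 (adjusted p = 0.016), under the fold threshold. Among the genes of the list that rose were CTH, which supplies cysteine, and CHAC1, which degrades glutathione.

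In the list of thioredoxin-related genes, peroxiredoxins, sestrins and methionine sulfoxide reductases, 21 of 22 were tested, with 6 called higher and 5 lower, shares of 28.6% and 23.8% that lie near the 29.2% and 29.6% of all tested genes. TXNIP, the arrestin that binds and inhibits thioredoxin, had the largest rise of all list genes, from 938 ± 27.7 to 14804 ± 338 normalized counts, or by 3.98 on the log2 scale (SE 0.054, adjusted p = 9.7e-24). SESN2, a stress-induced inhibitor of mTORC1 signalling, rose by 2.05 (adjusted p = 3.1e-16) and TXNL1, a thioredoxin-like protein of the proteasome, by 1.23 (adjusted p = 3.7e-13). PRDX1, the abundant cytosolic peroxiredoxin and a known NRF2 target, fell by 0.53 on the log2 scale from 3271 ± 34.7 to 2267 ± 154 (adjusted p = 2.3e-08). MSRB3 fell by 0.36 and PRDX2 by 0.33. PRDX1 is known to have processed pseudogenes, whose reads the counting may have split from it.

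Further NRF2 targets of NADPH supply, quinone and carbonyl reduction, conjugation and export were called about as often as genes in general. Of 30 listed, 25 were tested, 6 were called higher (24.0%) and 8 lower (32.0%), near the 29.2% and 29.6% of all tested genes, and the median log2 fold change was -0.12. NQO1, the quinone reductase often used as a readout of NRF2, had 2336 ± 40.6 normalized counts in parent and 2614 ± 81.5 in ADRr cells, a log2 fold change of 0.16 (adjusted p = 0.0099), under the fold threshold. TKT, a transketolase of the pentose phosphate pathway, fell by 0.61 on the log2 scale (adjusted p = 3.6e-09).

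Aldose reductase AKR1B1, which reduces carbonyls with NADPH, fell by 0.80 on the log2 scale from 13245 ± 479 to 7611 ± 422 normalized counts (adjusted p = 2.8e-12), and PIR, an iron-binding nuclear protein, by 0.89. OSGIN1, an oxidative stress-induced growth inhibitor, rose by 1.55 from 196 ± 36.3 to 574 ± 34.9 (adjusted p = 2.9e-11), and the exporter ABCC4 by 1.10. AKR1C1 rose by 1.56, from 32.1 to 46.5 normalized counts in parent libraries to 103 to 139 in ADRr libraries (adjusted p = 6.3e-07), a value made uncertain by its near-identical paralogue AKR1C2, which was not tested. On the log2(FPKM + 1) scale the AKR1C1 difference was 0.48. UGT1A6 was at 0 in every library, and AKR1B10, ALDH3A1 and CYP4F11 were also too low to be tested.

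Of the 12 genes of heme breakdown and iron handling, all tested, 7 were called higher (58.3%) and 2 lower (16.7%), beside 29.2% and 29.6% of all tested genes, with a median log2 fold change of 0.34. BLVRB, which reduces products of heme breakdown, rose by 1.25 from 867 ± 133 to 2065 ± 89.2 normalized counts (adjusted p = 3.7e-12). SLC48A1, a heme transporter of lysosomes, rose by 0.82 (adjusted p = 4.1e-07) and FTH1, the ferritin heavy chain that stores the iron released, by 0.73 (adjusted p = 1.5e-09), with the reservation that FTH1 has many processed pseudogenes. FLVCR1, a plasma membrane transporter described as a heme exporter, fell by 1.03 on the log2 scale (adjusted p = 2.5e-08). The other gene called lower was SLC40A1 (ferroportin, the iron exporter), at -1.07. SLC40A1 averaged under 100 normalized counts in both groups, so its value is less precise.

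Other transcription factors known to act on promoters of the 9 genes were mixed. Of 10 tested, 5 were called higher and 2 lower, beside 29.2% and 29.6% of all tested genes, with a median log2 fold change of 0.27. ATF4, which drives SLC7A11, CTH, CHAC1 and SESN2 in amino acid stress, rose by 0.37 from 3833 ± 149 to 4967 ± 35.3 normalized counts (adjusted p = 6.4e-07). Its partners in that response, DDIT3 (CHOP) and ATF3, rose by 2.47 (adjusted p = 1.9e-16) and 2.12 (adjusted p = 3.8e-15). MYC rose by 0.95 (adjusted p = 1.6e-13). HSF1 fell by 0.33 on the log2 scale (adjusted p = 5.1e-04), a change short of the fold threshold without parent replicate 3 (-0.22). The part of these factors in the changes of the 9 genes was not tested.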

How the data were processed

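The authors deposited whole-number counts per gene and FPKM values made from them for 6 libraries. According to the study's methods and the submitters' processing notes, polyadenylated RNA was sequenced as paired-end reads, mapped to GRCh38 with HISAT2 2.0.5 and counted with featureCounts 1.5.0-p3. The sample records and the methods name different library kits. In the deposited FPKM the reads divided by exceed a library's total by 0.905 to 3.10%.

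The counts were fitted with edgeR 4.0.16 in R 4.3.3 (filterByExpr, TMM, quasi-likelihood test, Benjamini-Hochberg). The fit was tried on simulated counts in which few genes changed, equally up and down, at a fixed dispersion. That trial does not cover data such as these, where 29.2% of tested genes were called higher and 29.6% lower. Normalized counts are counts scaled to the mean effective library size. Libraries of a group differed by more than sampling noise. Alternatives were DESeq2 1.42.0, limma 3.58.1 on log2 FPKM, other scalings, filters and thresholds, a replicate block and each library left out. Named were the 9 genes, NQO1, SLC3A2, GSR, BACH1, SQSTM1, TXNIP and up to 3 called genes per list and direction with at least 100 normalized counts. Others were named after their values were seen (NFE2L2 neighbours, RBX1, GPX4, SLC40A1, ATF4). The members and lists were chosen with earlier results of these data known. Some genes counted in the lists are not reported here by name. Promoter windows are RefSeq's.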

Additional observations from a re-analysis of the deposited data

How the results depend on the processing

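Between the settings tried, the 6 genes called higher kept their direction, as did KEAP1 and GCLC, which were called under none. SRXN1, at -0.12, lay between -0.28 and 0.028 with 1 library left out, the last without ADRr replicate 3, where it had the fewest counts. GCLM was not called without parent replicate 3 (0.26). The setting that changed most counts was a threshold of 1.2 on the log2 scale, at which 1 of the 9 genes (SLC7A11) was called higher, where 7.31% of all tested genes were higher and 6.38% lower. At it the regulators had 3 higher and 0 lower, the glutathione genes 4 and 1, the thioredoxin list 3 and 0, the NADPH and detoxification list 2 and 1, the heme and iron genes 1 and 0 and the other factors 2 and 0. Without parent replicate 3 the other factors had 1 gene lower. When each library was left out in turn the log2 ratio difference lay between -0.57 and -0.40 for GCLC to GCLM, -0.62 and -0.54 for TXN to TXNRD1, 0.46 and 0.72 for SLC7A11 to SLC3A2 and 0.66 and 0.91 for NFE2L2 to KEAP1. Replicate numbers are shared by the groups. Deviations of same-numbered libraries from their group means correlated at 0.01, -0.02 and -0.05, so no shared effect was seen. With 3 libraries per group this cannot exclude that the libraries were paired. With the replicate number as a block, 6 of the 9 genes were called higher and 0 lower, as without it, beside 28.9% and 29.3% of all tested genes, and no other call reported here changed. SRXN1, AKR1C1 and SLC40A1 had few counts, which limits their precision.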

Other observations

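The tested genes whose profile over the 6 libraries lay nearest to that of NFE2L2, by distance of centred log2 CPM among 10868 genes that averaged 100 normalized counts or more, were ZC3H15 (distance 0.0522, log2 fold change 0.71), JMJD1C (0.0595, 0.74) and STK17B (0.0610, 0.70). With 2 groups this likeness mostly reflects a difference between groups of the same size.

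Of genes that share the span of NFE2L2 on its own strand, AC019080.1 had a log2 fold change of 1.10 (adjusted p = 4.2e-05 from edgeR) at 42 to 109 counts per library. AC019080.5, also on that strand, had 1.07 (adjusted p = 0.020 from edgeR) at 8 to 39 counts per library. EID3, which lies within TXNRD1, had a log2 fold change of 1.44 (adjusted p = 0.0017 from edgeR) at 7 to 38 counts per library. Reads from the host transcripts were not separated from those of these genes. The antisense gene SLC7A11-AS1 had a log2 fold change of 1.17 (adjusted p = 0.036 from edgeR) at 4 to 19 counts per library. The remaining tested genes that overlap members changed less. They were AGPS (0.21), AC011461.1 within KEAP1 (-0.18), and RPL18AP3 (-0.18) and AC089983.1 (0.10) within TXNRD1.

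The core TGACNNNGC stood in 6 of 40 start windows of the regulators, 5 of 30 of the glutathione genes, 2 of 27 of the thioredoxin list, 9 of 30 of the NADPH and detoxification list, 1 of 15 of the heme and iron genes and 2 of 10 of the other factors, beside 10.9% of all windows. Windows of 1 gene can overlap, and no relation to the calls was tested.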
